A study of Mus musculus with 22 samples.

Results

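The genes described here encode the glycolysis and glucose transport machinery of mouse dendritic cells (DCs): glucose transporters, the enzymes of each glycolytic step with their tissue isoforms, the enzymes and transporters that handle lactate, the kinases that restrain pyruvate dehydrogenase, and the oxygen-regulated transcription factor gene Hif1a. They were chosen as 33 named gene symbols, and all 33 were found among the 34047 rows of the gene count table. No measured value entered the choice of symbols, but the list was drawn up with earlier results of these data known. All 33 passed the filter on low counts in every comparison, so none was left untested.

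Glycolysis converts glucose to pyruvate in the cytosol and yields ATP without oxygen. Entry of glucose through the GLUT transporters (Slc2a genes), its phosphorylation by hexokinase, and the phosphofructokinase step are the main points of control, and the bifunctional PFKFB enzymes set the pace of phosphofructokinase by making or removing its activator, a fructose bisphosphate. Pyruvate is either reduced to lactate by lactate dehydrogenase and exported by monocarboxylate transporters, or enters mitochondria through pyruvate dehydrogenase, which PDK kinases switch off. Resting DCs are known to raise glycolysis after sensing microbial ligands, and many of these genes are known targets of HIF-1, whose alpha subunit is controlled mainly at the level of protein stability. Several steps are served by isoenzymes from separate genes, so a cell type can be described by which isoform it uses as well as by how much.

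RNA-seq was performed on sorted conventional DCs from naive Tbx21RFP-Cre mice, 6 to 10 weeks old and sex matched, in which a red fluorescent protein (RFP) and Cre are knocked in at the gene for the transcription factor T-bet; the mice were homozygous for the knock-in, and no group lacked it. XCR1+ cDC1s, RFP+ (T-bet+) cDC2s and RFP- (T-bet-) cDC2s were each sorted from spleen, with 3 libraries per subset, and from mesenteric lymph node (MLN), where there were 3 cDC1 libraries and 2 for either kind of cDC2, which makes 16 RNA libraries. Each RNA library held cells pooled from 2 mice. ATAC-seq, which measures open chromatin, was performed on the same 3 subsets of spleen only, with 2 libraries each. The study asked how these subsets differ and whether the differences are shared across tissues. In one sentence of its methods the RFP+ and RFP- gates are given the opposite way round, and the sample labels, in which RFP+ is T-bet+, were followed here.

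RNA libraries held 20993220 to 29006549 counted reads and ATAC-seq libraries 7270164 to 10081555. Subset markers followed the labels: Xcr1 was 806 to 1163 CPM (read counts scaled to library size by TMM) in spleen cDC1s and 4.44 to 7.01 in T-bet+ cDC2s, Tbx21 was 17.2 to 24.9 in spleen T-bet+ cDC2s against 0.289 to 2.38 in T-bet- cDC2s, and it was lower, at 2.93 to 7.19, in the 2 MLN T-bet+ libraries. MLN libraries differed among themselves in 5 markers of mature migratory DCs (Ccr7, Fscn1, Cacnb3, Ccl22 and Socs2): their summed level was 4150.0 CPM in cDC1 replicate 1 against 15184 and 14758 in the other cDC1 libraries, and 2967 in T-bet+ replicate 1 against 11131 in replicate 2. The 2 MLN T-bet+ libraries also differed in cDC1 markers, whose list summed to 153 CPM in replicate 1 and 431 in replicate 2. Xcr1 was at 5.19 and 34.0 CPM and Clec9a at 0.263 and 8.75 in replicates 1 and 2, while the T-bet+ marker Dtx1 was at 31.9 and 14.2. The part of this in member levels was not tested. T-bet- cDC2s carried more RNA of a 6-gene monocyte or macrophage list (751 to 1050.1 CPM summed, against 389 to 469.7 in T-bet+ cDC2s and 25.5 to 34.3 in cDC1s of spleen), and T-bet+ cDC2s more of an 8-gene dividing-cell list (487 to 711 against 101 to 260.3 in T-bet- cDC2s). The 3-gene NK-cell list summed to at most 0.53 CPM in any library, and the 3-gene neutrophil list (S100a8, S100a9 and Ly6g) to 8.11 to 13.5 CPM in spleen cDC1s, 31.6 to 51.7 for spleen T-bet- and 32.4 to 44.97 for spleen T-bet+ cDC2s and at most 3.47 in any MLN library. The 5-gene T-cell list, which includes Cd4, ran from 20.04 to 29.7 CPM in spleen cDC1s against 370.2 to 503 for T-bet- and 351 to 428 for T-bet+ cDC2s. Cd4 itself was at 370.1 to 502 CPM in spleen T-bet- and 349 to 424 in spleen T-bet+ cDC2s. Cd3d, Cd3e and Cd3g were each at most 0.914 CPM in any spleen library, and Cd8b1 at most 3.72. In the paper high Cd4, with Sirpa and Irf4, backed the cDC2 label of T-bet+ single-cell clusters and of a mixed cluster. Its T-bet- clusters were labelled cDC2 on Itgam, Sirpa and Zbtb46. The neutrophil list differed between cDC1s and cDC2s of spleen and between the tissues, as members did, and the part of these lists in the differences was not tested.

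Spleen libraries also differed in how levels followed transcript GC content. Across 8107 genes the rank correlation of a library's deviation with GC was positive in cDC1 replicates 1 and 2, T-bet- replicate 3 and all 3 T-bet+ libraries (the higher GC class) and negative in the other 3, with a range of -0.401 to 0.344. In MLN it ran from -0.325 to 0.032, under the 0.1 set for the higher class, so all 7 MLN libraries fell in the lower class. For T-bet+ cDC2s, tissue and GC class therefore cannot be told apart within the subset. Counts came from uniquely aligned reads, so members with near-identical copies elsewhere in the genome can lose reads: of the 50-base stretches in the transcript, 94.8% of Pgam1, 92.9% of Pgk1, 85.6% of Gapdh and 72.2% of Eno1 occurred at other loci, and their levels are uncertain. Smaller shares did so for Pkm (40.5%), Ldhb (33.6%), Ldha (28.3%), Gpi1 (24.7%), Tpi1 (23.6%) and Aldoa (14.8%), which also limits their levels. In these bulk samples fewer cells of a type and less RNA per cell cannot be told apart, and p-values measure the spread between these pooled libraries.

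The subsets of spleen differed in which glycolytic isoforms and transporters they expressed. Both cDC2 subsets had more of all 3 glucose transporters, Slc16a3, Pfkfb4, Eno1, Eno3 and Ldhb than cDC1s, and less Hk3, Pfkp, Pgk1, Pgam1 and Ldha. T-bet+ cDC2s differed from T-bet- cDC2s mainly by lower Hk3, Aldoc, Aldoa, Pfkfb4 and Pfkp, with higher Slc2a3 and Eno3. By edgeR's quasi-likelihood test with Benjamini-Hochberg adjustment over all genes (adjusted p under 0.05), 17 of 33 members (51.5%) passed between T-bet+ cDC2s and cDC1s, 8 higher and 9 lower, where 18.2% of 14377 genes tested passed. Between T-bet- cDC2s and cDC1s 15 members (45.5%) passed, 9 higher and 6 lower, against 15.9% of genes. Between T-bet+ and T-bet- cDC2s 7 members (21.2%) passed, 2 higher and 5 lower, against 5.38%. These comparisons share their libraries, so their counts are not independent of one another. The median log2 fold change of the 33 members was -0.278 (T-bet+ over cDC1), 0.0845 (T-bet- over cDC1) and -0.429 (T-bet+ over T-bet-), where the medians of all genes were 0.0335, -0.011 and -0.0134. Of these calls, 11 of 17, 10 of 15 and 1 of 7 (Hk3) held in all 15 alternative fits. Where a call ended on leaving out 1 library of the fit, the library is named with the gene, and the log2 fold change without it follows in parentheses.

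In MLN, Slc2a3, Ldhb and Pfkfb4 were again higher and Pfkp and Pgk1 lower in both cDC2 subsets than in cDC1s. Hk3 was lower in T-bet+ cDC2s, and Slc16a3 was higher in T-bet- cDC2s. 6 members (18.2%) passed between T-bet+ cDC2s and cDC1s, 3 higher and 3 lower, against 6.22% of 15298 genes, and 6 (18.2%) passed between T-bet- cDC2s and cDC1s, 4 higher and 2 lower, against 5.79%. Between T-bet+ and T-bet- cDC2s of MLN, with 2 libraries each, 0 members passed, and 0.0% of all genes did by the edgeR test. At an unadjusted p under 0.05, 5 members (Slc2a3, Hk1, Hk3, Pfkl and Pfkm) and 1444 genes were below the level, and DESeq2 called 2 members and 341 genes. The 2 MLN T-bet- libraries are numbered 2 and 3 in their names but 1 and 2 as replicates in the labels. Both MLN libraries with low mature migratory markers, cDC1 and T-bet+ replicate 1, are number 1 in their names, which no T-bet- library is. The labels do not say what the numbers stand for. If they mark shared preparations, number and subset are partly confounded in the MLN comparisons. A block by the number in the name called 130 genes and 0 members between the cDC2 subsets, and 2440 and 2477 genes against cDC1s, where 952 and 885 passed without it. Hk3, at -2.16 ± 0.61, and Slc2a3, at 1.49 ± 0.50 on the log2 scale, lay on the same side of 0 as in spleen without passing. The calls of Slc2a3 and Hk3 between T-bet+ cDC2s and cDC1s held in all 15 alternatives, and each of the other calls in MLN was lost in at least 1 of them.

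Between tissues, MLN cells had more Pfkfb3, which passed in all 3 subsets though in each of them not under every alternative, more Eno2 and Eno3 in cDC1s and T-bet- cDC2s and more Slc2a6 in cDC1s, and less Slc16a1 in cDC1s and T-bet+ cDC2s. 9 members passed in cDC1s (27.3%, 4 higher and 5 lower in MLN, against 11.7% of 16795 genes), 7 in T-bet- cDC2s (21.2%, 3 higher and 4 lower, against 5.95%) and 3 in T-bet+ cDC2s (9.09%, 1 higher and 2 lower, against 5.09%). Of these calls, 4 of 9 in cDC1s (Slc2a6, Eno2, Eno3 and Slc16a1), 1 of 7 for T-bet- (Eno2) and 0 of 3 for T-bet+ cDC2s held in all 23 alternatives. With GC class as a term 5, 7 and 0 members passed, and the genes called went from 1961, 1000 and 855 to 774, 1105 and 63. Tissue and any difference in how the tissues were prepared cannot be told apart in these contrasts. A test of the interaction, which asks whether a subset difference differs between tissues, called 0 members for T-bet+ against T-bet- cDC2s, where 0.00595% of genes passed, 0 for T-bet+ cDC2s against cDC1s (0.0893%) and 0 for T-bet- cDC2s against cDC1s (0.0357%). Unadjusted p was under 0.05 for 1, 5 and 5 members and for 847, 1424 and 991 of all genes. DESeq2 called 0, 1 and 1 members and 43, 239 and 121 genes. The 9 members that passed in no comparison within or between tissues were Hk2, Gpi1, Pfkm, Pfkfb2, Tpi1, Gapdh, Pdk3, Pdha1 and Hif1a.

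**Figure D1:**
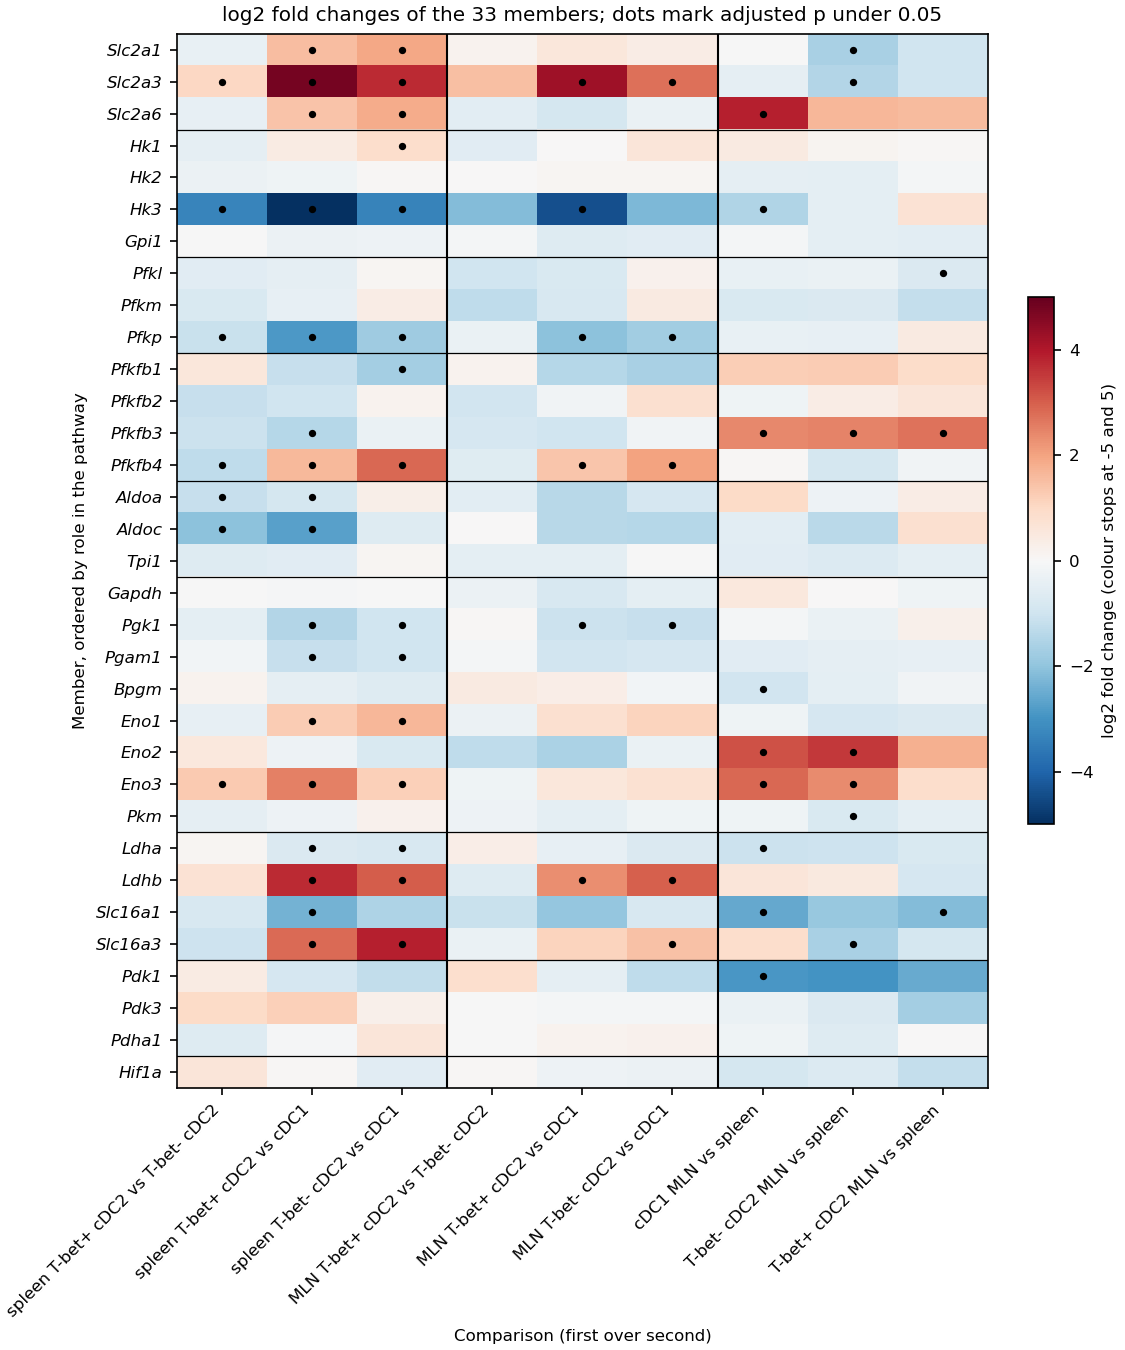
Each row is a member and each column a comparison; colour is the log2 fold change (red higher, blue lower in the first-named group) and dots mark an adjusted p under 0.05. Dots are most frequent in the 2 spleen comparisons with cDC1s, with 17 and 15 members, and absent for T-bet+ against T-bet- cDC2s in MLN.

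Open chromatin was counted in 150-base windows centred on peak summits. Windows within the gene body or up to 2000 bases before the start were assigned to a member: 218 windows at 27 members, of which 210 passed the filter, and 91 lay within 2000 bases of a start. No window was assigned to Aldoa, Ldha, Ldhb, Pdha1, Pfkl or Pgk1. A window passed when its adjusted p was under 0.01 and its log2 fold change beyond 0.5 either way. By this rule 42 member windows (20%) passed between T-bet+ cDC2s and cDC1s, 31 more and 11 less open, against 23.0% of all windows. Between T-bet- cDC2s and cDC1s 26 passed (12.4%, 20 more and 6 less open, against 17.9%), and between T-bet+ and T-bet- cDC2s 8 (3.81%), all 8 less open in T-bet+ cDC2s, against 6.28%. In each comparison the share of member windows was below that of all windows.

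Glucose transporters separated cDC2s from cDC1s in spleen. Slc2a1 (chr4:119108711-119137983) encodes GLUT1, the widely expressed basal transporter, Slc2a3 (chr6:122727809-122801640) the high-affinity GLUT3, and Slc2a6 (chr2:27021363-27027998) GLUT6, a family member found on lysosomes. Slc2a3 stood at 6.399, 8.19 and 10.9 CPM in spleen cDC1s, 115, 86.9 and 139 in T-bet- cDC2s, and 222, 257 and 221 among T-bet+ cDC2s. The 3 subsets did not overlap, and T-bet+ cDC2s were the highest. Its log2 fold change (± SE) was 4.78 ± 0.29 (adjusted p = 7.02e-06) between T-bet+ cDC2s and cDC1s, 3.74 ± 0.28 (adjusted p = 2.51e-05) between T-bet- cDC2s and cDC1s, and 1.04 ± 0.25 (adjusted p = 0.0452) between the cDC2 subsets. In MLN it was at 6.90, 6.16 and 5.72 CPM in MLN cDC1s, 28.7 and 52.9 in T-bet- cDC2s, and 175 and 59.5 among T-bet+ cDC2s. Both cDC2 subsets again lay above every cDC1 library, by 4.25 ± 0.48 (adjusted p = 0.00321) for T-bet+ and 2.75 ± 0.46 (adjusted p = 0.0135) for T-bet- cDC2s, and T-bet+ replicate 1, the library with low mature migratory markers and less RNA of the cDC1 markers, was the higher of the T-bet+ libraries. T-bet- cDC2s of MLN had less Slc2a3 than those of spleen, at a log2 fold change of -1.48 ± 0.41 (adjusted p = 0.0492). Slc2a1 stood at 32.6, 24.8 and 29.8 CPM in spleen cDC1s, 142, 121 and 70.2 in T-bet- cDC2s, and 109.9, 89.0 and 57.1 among T-bet+ cDC2s. Every spleen cDC2 library was above every cDC1 library, while the cDC2 subsets overlapped, and the fold changes over cDC1s were 1.56 ± 0.33 (adjusted p = 0.00918) for T-bet+ and 1.94 ± 0.33 (adjusted p = 0.00344) for T-bet- cDC2s. In MLN it was at 36.8, 22.6 and 27.6 CPM in MLN cDC1s, 34.1 and 38.8 in T-bet- cDC2s, and 59.99 and 24.6 among T-bet+ cDC2s, and no subset comparison passed there. T-bet- cDC2s had less Slc2a1 in MLN than in spleen (-1.61 ± 0.42, adjusted p = 0.0367). Slc2a6 stood at 24.1, 11.1 and 32.9 CPM in spleen cDC1s, 93.5, 80.5 and 69.7 in T-bet- cDC2s, and 68.7, 45.4 and 66.6 among T-bet+ cDC2s. The cDC1 libraries were again lowest, by 1.41 ± 0.37 (adjusted p = 0.0271) against T-bet+ and 1.84 ± 0.38 (adjusted p = 0.00927) against T-bet- cDC2s. MLN levels were higher, at 131, 448 and 439 CPM in MLN cDC1s, 277 and 232 in T-bet- cDC2s, and 109 and 248.9 among T-bet+ cDC2s, and MLN cDC1s exceeded spleen cDC1s by 3.90 ± 0.51 (adjusted p = 0.000936). The lowest of the MLN cDC1 and of the MLN T-bet+ libraries were those with low mature migratory markers, and the part of those markers in the tissue difference was not tested. Slc2a3 missed the threshold for T-bet+ over T-bet- in spleen without cDC1 replicate 2, any T-bet+ library or T-bet- replicate 1 or 2 (0.89 to 1.08). Slc2a3 no longer passed for T-bet- over cDC1 in MLN without cDC1 replicate 2 or 3 or any T-bet- library (2.27 to 3.11). Slc2a3 fell short for MLN over spleen T-bet- cDC2s without spleen cDC1 replicate 1 or 2, any spleen T-bet+ library, any spleen T-bet- library, any MLN cDC1 library or any MLN T-bet- library (-1.97 to -1.07). Slc2a1 missed the threshold for T-bet+ over cDC1 in spleen without cDC1 replicate 2 (1.37). Slc2a1 no longer passed for MLN over spleen T-bet- cDC2s without spleen cDC1 replicate 2, spleen T-bet+ replicate 2, spleen T-bet- replicate 1 or 2, MLN cDC1 replicate 3 or any MLN T-bet- library (-1.68 to -1.38). Slc2a6 fell short for T-bet+ over cDC1 in spleen without cDC1 replicate 1 or 2 or T-bet+ replicate 1 or 3 (0.999 to 1.40).

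At Slc2a1, 4 intronic windows 16.8 to 22.6 kb after the start were more open in both cDC2 subsets than in cDC1s. The first of them (chr4:119125393-119125542, mm10) held 0.832 and 0.522 CPM in cDC1s, 5.30 and 6.78 in T-bet- cDC2s, and 3.48 and 3.35 among T-bet+ cDC2s, so that the change was 2.30 ± 0.48 (adjusted p = 8.66e-05) for T-bet+ and 3.12 ± 0.45 (adjusted p = 6.5e-08) for T-bet- cDC2s over cDC1s. A window in an intron of Slc2a6, 2.3 kb after its start (chr2:27025627-27025776), held 1.54 and 0.653 CPM in cDC1s, 12.2 and 15.7 in T-bet- cDC2s, and 22.5 and 18.0 among T-bet+ cDC2s, or 4.16 ± 0.33 (adjusted p = 2.26e-17) and 3.63 ± 0.34 (adjusted p = 4.88e-14). Both windows passed in each alternative fit. A single window of Slc2a3, 45.5 kb after the start, was also more open, by 1.44 ± 0.35 (adjusted p = 0.000617) and 1.49 ± 0.35 (adjusted p = 0.000555), but missed the threshold for T-bet+ without cDC1 replicate 1 (0.98) and for T-bet- without cDC1 replicate 1 or T-bet- replicate 1 (1.02 to 1.34). The sequences of the Slc2a1 and Slc2a6 windows are shown because they carry the largest openings over cDC1s among the transporters. They read 5′ to 3′ on the strand of the gene, from RefSeq GRCm38.p6 (mm10), with capitals for matches to GGAAGT, a core recognised by ETS factors, on either strand.
Slc2a1 intron, chr4:119125393-119125542, + strand: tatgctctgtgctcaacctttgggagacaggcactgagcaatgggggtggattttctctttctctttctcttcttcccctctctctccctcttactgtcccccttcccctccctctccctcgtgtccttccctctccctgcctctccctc
Slc2a6 intron, chr2:27025627-27025776, - strand: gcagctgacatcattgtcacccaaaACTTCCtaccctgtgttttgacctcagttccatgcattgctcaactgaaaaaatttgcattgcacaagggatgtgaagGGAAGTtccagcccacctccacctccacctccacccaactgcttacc
The Slc2a6 window has 2 matches and the Slc2a1 window 0; such matches were found in 22.2% of all windows.

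**Figure D2:**
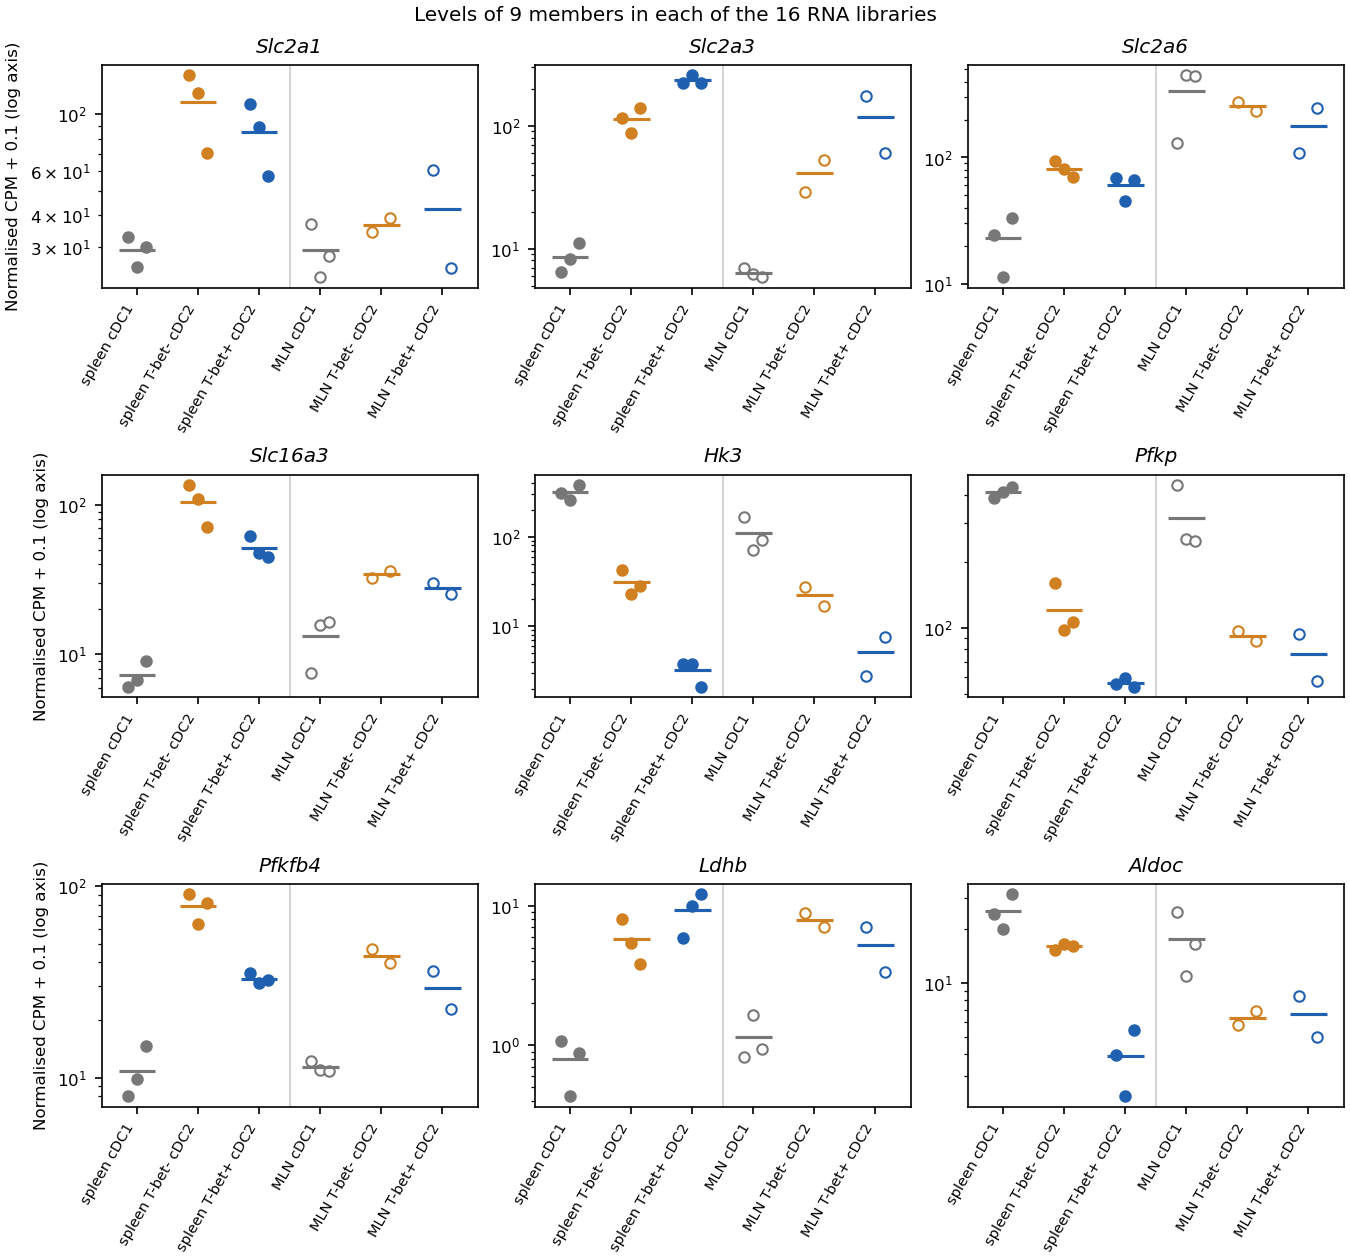
Normalised CPM plus 0.1 on a log axis for 9 members, with 1 point per library and a line at the group mean; filled points are spleen and open points MLN. cDC1s (grey) lie apart from cDC2s for Slc2a3, Hk3, Pfkp, Pfkfb4 and Ldhb in both tissues, and Slc2a6 is higher in MLN cDC1s, at 131 to 448 CPM, than in spleen cDC1s, at 11.1 to 32.9.

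Hexokinases trap glucose by phosphorylation. Hk3 (chr13:55005985-55021385), an isoform known mainly from myeloid cells, had the largest differences of any member in both spleen comparisons of T-bet+ cDC2s. In spleen it was at 310.1, 255 and 380.1 CPM in spleen cDC1s, 42.3, 22.7 and 27.8 in T-bet- cDC2s, and 3.72, 3.68 and 1.99 among T-bet+ cDC2s, with no overlap between subsets. The log2 fold change was -6.65 ± 0.40 (adjusted p = 6.37e-06) between T-bet+ cDC2s and cDC1s, -3.35 ± 0.34 (adjusted p = 0.000155) between T-bet- cDC2s and cDC1s and -3.30 ± 0.35 (adjusted p = 0.000786) between the cDC2 subsets, and each of these held in all alternatives. In MLN Hk3 was at 167, 71.6 and 91.1 CPM in MLN cDC1s, 27.5 and 16.8 in T-bet- cDC2s, and 2.67 and 7.56 among T-bet+ cDC2s. The order of the subsets was the same, and T-bet+ cDC2s differed from cDC1s with a log2 fold change of -4.41 ± 0.65 (adjusted p = 0.0086); the difference of T-bet- cDC2s from cDC1s was -2.25 ± 0.58 (adjusted p = 0.0649). MLN cDC1s had less Hk3 than spleen cDC1s (-1.52 ± 0.42, adjusted p = 0.0327). Between the cDC2 subsets of spleen the monocyte or macrophage list ran the same way as Hk3 (751 to 1050.1 CPM summed for T-bet- and 389 to 469.7 for T-bet+), and against cDC1s (25.5 to 34.3) the opposite way. Its part in the Hk3 differences was not tested. Hk1 (chr10:62268855-62379908), the broadly expressed isoform, was at 42.9, 61.2 and 79.1 CPM in spleen cDC1s, 124, 88.4 and 126 in T-bet- cDC2s, and 85.1, 81.5 and 78.0 among T-bet+ cDC2s. T-bet- cDC2s exceeded cDC1s by 0.89 ± 0.26 (adjusted p = 0.0453), while T-bet+ cDC2s overlapped cDC1s' range. In MLN Hk1 was at 70.3, 86.6 and 95.9 CPM in MLN cDC1s, 122 and 125 in T-bet- cDC2s, and 81.7 and 87.1 among T-bet+ cDC2s, and no comparison passed. Hk2, the inducible isoform and a known HIF-1 target, was at 9.37 to 42.9 CPM over the 16 libraries, and Gpi1, glucose phosphate isomerase, at 271 to 563; neither passed in any comparison. Hk3 missed the threshold for MLN over spleen cDC1s without any spleen cDC1 library or MLN cDC1 replicate 2 or 3 (-1.70 to -1.29). Hk1 no longer passed for T-bet- over cDC1 in spleen without cDC1 replicate 1 or 2, any T-bet+ library or any T-bet- library (0.63 to 0.995). No Hk3 window passed. At Hk1 a window in an intron, 79.3 kb after the start (chr10:62300560-62300709), held 1.07 and 1.96 CPM in cDC1s, 3.45 and 1.92 in T-bet- cDC2s, and 0.326 and 0.314 among T-bet+ cDC2s. It was the member window with the largest difference between the cDC2 subsets, -3.00 ± 0.61 (adjusted p = 0.000223), and it missed the threshold without T-bet- replicate 1 (-2.53). Its levels in T-bet+ cDC2s rest on few reads, which limits precision. The window's sequence, on the gene's strand, holds no match to the ETS core.
Hk1 intron, chr10:62300560-62300709, - strand: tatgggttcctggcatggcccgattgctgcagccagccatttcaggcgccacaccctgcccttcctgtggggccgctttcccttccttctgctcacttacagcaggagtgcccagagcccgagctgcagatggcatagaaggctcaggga

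Phosphofructokinase subunits are encoded by Pfkl, Pfkm and Pfkp, named for liver, muscle and platelet. Pfkp (chr13:6579768-6648777) was at 391, 414 and 435 CPM in spleen cDC1s, 159, 97.6 and 106 in T-bet- cDC2s, and 55.2, 58.8 and 53.7 among T-bet+ cDC2s. cDC1s had the most and T-bet+ cDC2s the least, without overlap. The log2 fold change was -2.88 ± 0.23 (adjusted p = 2.96e-05) for T-bet+ and -1.77 ± 0.22 (adjusted p = 0.000493) for T-bet- cDC2s over cDC1s, and -1.11 ± 0.21 (adjusted p = 0.0174) between the cDC2 subsets. In MLN Pfkp was at 447, 254 and 248.9 CPM in MLN cDC1s, 96.3 and 86.8 in T-bet- cDC2s, and 93.8 and 57.4 among T-bet+ cDC2s, and both cDC2 subsets lay below cDC1s, at a log2 fold change of -2.05 ± 0.40 (adjusted p = 0.0248) for T-bet+ and -1.74 ± 0.39 (adjusted p = 0.0434) for T-bet- cDC2s. Pfkl was at 61.8 to 176 CPM over all libraries and passed only in T-bet+ cDC2s between tissues, with 71.4 and 61.8 CPM in MLN against 112, 109 and 109 in spleen (-0.72 ± 0.19, adjusted p = 0.0431). Pfkm was at 1.77 to 10.8 CPM and did not pass. Pfkp fell short for T-bet+ over T-bet- in spleen without any T-bet+ library (-1.15 to -1.08). Pfkp missed the threshold for T-bet+ over cDC1 in MLN without cDC1 replicate 3, any T-bet+ library or any T-bet- library (-2.43 to -1.73). Pfkp no longer passed for T-bet- over cDC1 in MLN without any cDC1 library or any T-bet- library (-1.91 to -1.36). Pfkl fell short for MLN over spleen T-bet+ cDC2s without spleen cDC1 replicate 1, any spleen T-bet+ library, spleen T-bet- replicate 1 or 2, MLN cDC1 replicate 2 or 3, any MLN T-bet+ library or any MLN T-bet- library (-0.78 to -0.63). Windows at Pfkp went both ways. An intronic window 21.3 kb after the start (chr13:6627448-6627597) held 9.98 and 11.9 CPM in cDC1s, 6.78 and 10.3 in T-bet- cDC2s, and 4.57 and 2.51 among T-bet+ cDC2s, a difference of -1.29 ± 0.30 (adjusted p = 0.00173) between T-bet+ and T-bet- cDC2s and -1.63 ± 0.30 (adjusted p = 9.26e-06) between T-bet+ cDC2s and cDC1s; the former missed the threshold without T-bet+ replicate 2 or T-bet- replicate 2 (-0.95 to -0.91) and under DESeq2. A second window, 24.4 kb after the start (chr13:6624262-6624411), held 1.31 and 0.914 CPM in cDC1s, 2.71 and 3.24 in T-bet- cDC2s, and 5.22 and 4.29 among T-bet+ cDC2s and was more open in T-bet+ cDC2s than in cDC1s, by 2.07 ± 0.43 (adjusted p = 6.36e-05). Both are printed on the gene's strand because they lie close together and differ in direction; capitals mark the ETS core.
Pfkp intron, chr13:6627448-6627597, - strand: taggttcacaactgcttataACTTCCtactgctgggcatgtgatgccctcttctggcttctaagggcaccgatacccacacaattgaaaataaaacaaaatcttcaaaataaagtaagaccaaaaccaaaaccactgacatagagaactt
Pfkp intron, chr13:6624262-6624411, - strand: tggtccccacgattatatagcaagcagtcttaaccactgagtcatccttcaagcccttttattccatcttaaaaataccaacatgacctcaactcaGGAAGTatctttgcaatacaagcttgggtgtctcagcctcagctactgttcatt

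The PFKFB genes, whose products set phosphofructokinase activity, divided between subsets and tissues. Pfkfb4 (chr9:108991778-109032228), a known HIF-1 target, was at 7.86, 9.71 and 14.5 CPM in spleen cDC1s, 90.8, 63.5 and 81.9 in T-bet- cDC2s, and 35.1, 31.0 and 32.4 among T-bet+ cDC2s. T-bet- cDC2s were highest and cDC1s lowest without overlap: 2.88 ± 0.29 (adjusted p = 0.000135) for T-bet- and 1.62 ± 0.28 (adjusted p = 0.00294) for T-bet+ cDC2s over cDC1s, and -1.26 ± 0.27 (adjusted p = 0.0282) for T-bet+ over T-bet-. In MLN it was at 12.1, 10.9 and 10.8 CPM in MLN cDC1s, 46.7 and 39.4 in T-bet- cDC2s, and 35.9 and 22.7 among T-bet+ cDC2s, or 1.40 ± 0.28 (adjusted p = 0.0258) and 2.0001 ± 0.28 (adjusted p = 0.00723) for T-bet+ and T-bet- cDC2s over cDC1s. Pfkfb3 (chr2:11471433-11554077), the isoform with the strongest kinase activity and an inducible one, was at 196, 299 and 376 CPM in spleen cDC1s, 263, 179 and 246 in T-bet- cDC2s, and 104, 85.3 and 138 among T-bet+ cDC2s. T-bet+ cDC2s were lowest, at a log2 fold change of -1.41 ± 0.29 (adjusted p = 0.00841) against cDC1s. In MLN it reached 561, 2134 and 1887 CPM in MLN cDC1s, 1501 and 1068 in T-bet- cDC2s, and 276 and 1179 among T-bet+ cDC2s. Levels in MLN exceeded those in spleen by 2.39 ± 0.53 (adjusted p = 0.0127) in cDC1s, 2.49 ± 0.56 (adjusted p = 0.02) for T-bet- and 2.73 ± 0.56 (adjusted p = 0.0159) for T-bet+ cDC2s, and the lowest library of MLN cDC1s and of MLN T-bet+ cDC2s was in each case replicate 1, which had low mature migratory markers. Pfkfb1 (chrX:150588229-150643878), the liver isoform, was at 4.50, 2.96 and 5.03 CPM in spleen cDC1s, 0.963, 1.85 and 1.02 in T-bet- cDC2s, and 1.43, 1.84 and 2.41 among T-bet+ cDC2s, and was lower in T-bet- cDC2s than in cDC1s with a log2 fold change of -1.70 ± 0.44 (adjusted p = 0.027). Its MLN levels were 8.03, 10.2 and 10.7 CPM in MLN cDC1s, 2.86 and 3.21 in T-bet- cDC2s, and 1.24 and 5.82 among T-bet+ cDC2s, with no call. Pfkfb2 was at 0.555 to 3.81 CPM and did not pass. Pfkfb4 missed the threshold for T-bet+ over T-bet- in spleen without any T-bet+ library or T-bet- replicate 1 or 2 (-1.38 to -1.15). Pfkfb4 no longer passed for T-bet+ over cDC1 in MLN without cDC1 replicate 2 or 3, T-bet+ replicate 1 or any T-bet- library (1.06 to 1.41). Pfkfb4 fell short for T-bet- over cDC1 in MLN without T-bet- replicate 1 (1.84). Pfkfb3 missed the threshold for MLN over spleen cDC1s without spleen cDC1 replicate 1 or 2 or MLN cDC1 replicate 2 (2.08 to 2.36). Pfkfb3 no longer passed for MLN over spleen T-bet- cDC2s without spleen T-bet- replicate 1 or 2 or any MLN T-bet- library (2.25 to 2.73). Pfkfb3 fell short for MLN over spleen T-bet+ cDC2s without spleen T-bet+ replicate 1 or 2 or MLN T-bet+ replicate 2 (1.33 to 2.70). Pfkfb1 missed the threshold for T-bet- over cDC1 in spleen without cDC1 replicate 1 or 3 or T-bet- replicate 1 (-1.70 to -1.54). A window 29.8 kb after the start of Pfkfb4 (chr9:109021550-109021699) held 10.8 and 10.6 CPM in cDC1s, 26.6 and 23.6 in T-bet- cDC2s, and 25.1 and 20.4 among T-bet+ cDC2s and was more open in both cDC2 subsets, by 1.09 ± 0.21 (adjusted p = 1.97e-05) and 1.23 ± 0.21 (adjusted p = 2.67e-06), in each alternative. The window at -127 bases from its start differed by 0.66 ± 0.17 (adjusted p = 0.00152) and 0.64 ± 0.17 (adjusted p = 0.0027), but not without any cDC1 library or T-bet+ replicate 1 (0.53 to 0.72) for T-bet+ or without any cDC1 library or any T-bet- library (0.59 to 0.70) for T-bet-. At Pfkfb3 the 2 windows 57.2 and 57.3 kb after the start, which overlap, were less open in T-bet+ cDC2s when set against T-bet- cDC2s, the former with a log2 fold change of -0.85 ± 0.18 (adjusted p = 0.000348) and the latter with a log2 fold change of -0.98 ± 0.19 (adjusted p = 9.39e-05), which missed the threshold without T-bet- replicate 2 (-0.87). A Pfkfb1 intron window 5.87 kb after the start, at 2.73 and 2.87 CPM in cDC1s, 0.493 and 0.405 in T-bet- cDC2s, and 0.326 and 0.209 among T-bet+ cDC2s, was less open with a log2 fold change of -3.33 ± 0.66 (adjusted p = 3.37e-05) in T-bet+ and -2.61 ± 0.61 (adjusted p = 0.000515) in T-bet- cDC2s than in cDC1s, but not without cDC1 replicate 2 or T-bet- replicate 2 (-2.58 to -2.46) for T-bet-. The cDC2 levels of this window rest on few reads.

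Aldolases split fructose bisphosphate into triose phosphates. Aldoa (chr7:126795234-126800751), the main isoform, was at 536, 403 and 505 CPM in spleen cDC1s, 574, 699 and 487 in T-bet- cDC2s, and 268, 239 and 280.3 among T-bet+ cDC2s. All 3 T-bet+ libraries lay below all others in spleen, at a log2 fold change of -1.16 ± 0.20 (adjusted p = 0.00967) against T-bet- cDC2s and -0.87 ± 0.19 (adjusted p = 0.0124) against cDC1s. In MLN Aldoa was at 569, 1231 and 1002 CPM in MLN cDC1s, 526 and 454 in T-bet- cDC2s, and 225 and 463 among T-bet+ cDC2s, with the T-bet+ libraries overlapping T-bet- cDC2s and no call. The symbol has 2 gene identifiers in the annotation and a single row in the table, so its assignment is uncertain. Aldoc (chr11:78322968-78327781), known from brain, was at lower levels than Aldoa per length as well as in CPM, at 24.1, 19.9 and 31.1 CPM in spleen cDC1s, 15.1, 16.4 and 16.1 in T-bet- cDC2s, and 3.84, 2.21 and 5.32 among T-bet+ cDC2s. T-bet+ cDC2s were lowest without overlap: -2.06 ± 0.35 (adjusted p = 0.0091) against T-bet- cDC2s and -2.72 ± 0.35 (adjusted p = 0.000643) against cDC1s. In MLN it was at 24.9, 10.9 and 16.4 CPM in MLN cDC1s, 5.72 and 6.85 in T-bet- cDC2s, and 8.32 and 4.90 among T-bet+ cDC2s, where the cDC2 subsets overlapped. The interaction between tissues had an unadjusted p of 0.00235 and an adjusted p of 0.703 for Aldoc, so a difference between tissues was not shown. Tpi1, triose phosphate isomerase, was at 77.4 to 241 CPM and did not pass. Aldoa no longer passed for T-bet+ over T-bet- in spleen without T-bet+ replicate 1 or 2 (-1.18 to -1.10). Aldoa fell short for T-bet+ over cDC1 in spleen without T-bet+ replicate 2 (-0.81). Aldoc missed the threshold for T-bet+ over T-bet- in spleen without T-bet+ replicate 1 (-2.08).

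The lower steps, from glyceraldehyde phosphate to pyruvate, differed by isoform of enolase. Eno1 (chr4:150236721-150248879), the ubiquitous form, was at 268, 227 and 263 CPM in spleen cDC1s, 819.5, 946 and 656 in T-bet- cDC2s, and 552, 691 and 593 among T-bet+ cDC2s. All cDC2 libraries were above all cDC1 libraries, by 1.2798 ± 0.19 (adjusted p = 0.00138) for T-bet+ and 1.68 ± 0.19 (adjusted p = 0.000319) for T-bet- cDC2s. In MLN Eno1 was at 242, 209.5 and 196 CPM in MLN cDC1s, 507 and 391 in T-bet- cDC2s, and 474 and 275 among T-bet+ cDC2s, and neither difference passed at 0.81 ± 0.32 (adjusted p = 0.181) and 1.12 ± 0.31 (adjusted p = 0.0852). Eno3 (chr11:70657202-70662513), the muscle form, was at 62.1, 45.3 and 109 CPM in spleen cDC1s, 154, 177 and 168 in T-bet- cDC2s, and 382, 384 and 461 among T-bet+ cDC2s. T-bet+ cDC2s were highest and cDC1s lowest without overlap: 2.51 ± 0.31 (adjusted p = 0.000481) and 1.21 ± 0.30 (adjusted p = 0.0222) for T-bet+ and T-bet- cDC2s over cDC1s, and 1.30 ± 0.30 (adjusted p = 0.0361) between the cDC2 subsets. In MLN it was at 171, 694 and 714 CPM in MLN cDC1s, 885 and 813 in T-bet- cDC2s, and 335 and 1159.7 among T-bet+ cDC2s, higher than in spleen by 2.87 ± 0.53 (adjusted p = 0.0054) in cDC1s and 2.35 ± 0.55 (adjusted p = 0.0232) in T-bet- cDC2s. The difference in T-bet+ cDC2s was 0.87 ± 0.54 (adjusted p = 0.312). Eno2 (chr6:124760053-124769673), the neuronal form, passed in no subset comparison but was higher in MLN, at 57.6, 249.6 and 264 CPM in cDC1s against 21.8, 12.1 and 28.3 in spleen (3.20 ± 0.63, adjusted p = 0.00711) and 119 and 166 in T-bet- cDC2s against 13.0, 8.43 and 15.5 (3.54 ± 0.66, adjusted p = 0.00862).

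Pgk1 (chrX:106187100-106203699), the first ATP-yielding enzyme of the pathway, was at 173, 152 and 168 CPM in spleen cDC1s, 89.7, 82.7 and 76.8 in T-bet- cDC2s, and 56.0, 68.4 and 54.2 among T-bet+ cDC2s. cDC1s exceeded both cDC2 subsets without overlap, with log2 fold changes of -1.46 ± 0.19 (adjusted p = 0.000587) for T-bet+ and -0.98 ± 0.18 (adjusted p = 0.00592) for T-bet- cDC2s. In MLN the values were 153, 158 and 151 CPM in MLN cDC1s, 72.1 and 60.6 in T-bet- cDC2s, and 66.99 and 74.6 among T-bet+ cDC2s, or -1.09 ± 0.23 (adjusted p = 0.0328) and -1.15 ± 0.23 (adjusted p = 0.0286). Pgam1 (chr19:41911923-41918660), phosphoglycerate mutase, was at 95.2, 85.6 and 69.7 CPM in spleen cDC1s, 27.6, 43.2 and 53.7 in T-bet- cDC2s, and 40.6, 39.0 and 33.1 among T-bet+ cDC2s and was lower in both cDC2 subsets, at a log2 fold change of -1.15 ± 0.27 (adjusted p = 0.0164) and -1.01 ± 0.27 (adjusted p = 0.033). In MLN it was at 68.5, 47.6 and 52.1 CPM in MLN cDC1s, 20.6 and 39.5 in T-bet- cDC2s, and 34.3 and 22.1 among T-bet+ cDC2s with no call. Both genes have most of their sequence shared with other loci, as given above. Bpgm, the mutase best known from red cells, was at 7.39 to 18.8 CPM and was lower in MLN than in spleen cDC1s (-0.94 ± 0.26, adjusted p = 0.0359). Pkm, pyruvate kinase, was at 466 to 1114 CPM and passed only in T-bet- cDC2s between tissues (-0.74 ± 0.19, adjusted p = 0.037). Gapdh was at 21.03 to 43.8 CPM and did not pass. Eno3 no longer passed for T-bet+ over T-bet- in spleen without cDC1 replicate 1, any T-bet+ library or any T-bet- library (1.20 to 1.36). Eno3 fell short for T-bet- over cDC1 in spleen without cDC1 replicate 1 or 2 or T-bet- replicate 2 (0.97 to 1.12). Eno3 missed the threshold for MLN over spleen T-bet- cDC2s without any spleen T-bet- library or any MLN T-bet- library (2.31 to 2.43). Pgam1 no longer passed for T-bet+ over cDC1 in spleen without any T-bet+ library (-1.21 to -1.07). Pgam1 fell short for T-bet- over cDC1 in spleen without cDC1 replicate 1 or 2, any T-bet+ library or T-bet- replicate 1 or 2 (-1.06 to -0.78). Pgk1 missed the threshold for T-bet+ over cDC1 in MLN without cDC1 replicate 2 or 3, any T-bet+ library or any T-bet- library (-1.16 to -0.997). Pgk1 no longer passed for T-bet- over cDC1 in MLN without cDC1 replicate 2 or 3 or any T-bet- library (-1.31 to -1.02). Bpgm fell short for MLN over spleen cDC1s without any spleen cDC1 library, MLN cDC1 replicate 2 or 3 or any MLN T-bet- library (-1.05 to -0.85). Pkm missed the threshold for MLN over spleen T-bet- cDC2s without spleen cDC1 replicate 1, any spleen T-bet+ library, spleen T-bet- replicate 1 or 2, MLN cDC1 replicate 3 or any MLN T-bet- library (-0.79 to -0.65). The Gapdh window at -116 bases from the start held 7.72 and 7.44 CPM in cDC1s, 10.8 and 12.6 in T-bet- cDC2s, and 6.20 and 4.91 among T-bet+ cDC2s and was less open in T-bet+ cDC2s when set against T-bet- cDC2s, at a log2 fold change of -1.08 ± 0.27 (adjusted p = 0.00287), though not without T-bet+ replicate 2 or any T-bet- library (-1.17 to -0.91). An Eno1 intron window was more open in T-bet- cDC2s than in cDC1s (1.26 ± 0.32 (adjusted p = 0.0012), but not without any cDC1 library or T-bet- replicate 1 (1.24 to 1.278) for T-bet-), and an Eno2 window 1.13 kb after the start was more open in both cDC2 subsets (1.59 ± 0.40 (adjusted p = 0.00105) and 1.70 ± 0.40 (adjusted p = 0.000617), but not without cDC1 replicate 2 or T-bet+ replicate 2 (1.43 to 1.44) for T-bet+ or without cDC1 replicate 2 (1.54) for T-bet-). No Eno3 window passed.

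Lactate genes differed between cDC1s and cDC2s in both isoforms and transporters. Slc16a3 (chr11:120948480-120960868) encodes MCT4, the lactate exporter of glycolytic cells, and was at 5.95, 6.63 and 8.995 CPM in spleen cDC1s, 136, 109 and 71.1 in T-bet- cDC2s, and 62.0, 47.5 and 44.8 among T-bet+ cDC2s. The subsets did not overlap, and T-bet- cDC2s were highest. The log2 fold change over cDC1s was 2.84 ± 0.31 (adjusted p = 0.000228) for T-bet+ and 3.87 ± 0.32 (adjusted p = 4.68e-05) for T-bet- cDC2s, and it was -1.03 ± 0.29 (adjusted p = 0.0775) between the cDC2 subsets. In MLN Slc16a3 was at 7.43, 15.7 and 16.5 CPM in MLN cDC1s, 32.3 and 36.1 in T-bet- cDC2s, and 29.9 and 25.4 among T-bet+ cDC2s. T-bet- cDC2s exceeded cDC1s by 1.45 ± 0.34 (adjusted p = 0.0474), T-bet+ cDC2s by 1.11 ± 0.34 (adjusted p = 0.1), and MLN T-bet- cDC2s lay below spleen T-bet- cDC2s (-1.62 ± 0.37, adjusted p = 0.0211). The interaction of tissue with the T-bet- against cDC1 difference, spleen over MLN, was 2.5003 ± 0.49, with an unadjusted p of 0.000146 and an adjusted p of 0.103. Slc16a1 (chr3:104638668-104658462) encodes MCT1, which carries lactate and pyruvate either way, and was at 19.5, 44.0 and 17.1 CPM in spleen cDC1s, 5.73, 5.5 and 16.1 in T-bet- cDC2s, and 5.78, 5.78 and 4.24 among T-bet+ cDC2s. T-bet+ cDC2s lay below all cDC1 libraries (-2.35 ± 0.52, adjusted p = 0.012), and among T-bet- libraries replicate 3, which is in the higher GC class, was highest; the part of GC content was tested only as a term in an alternative fit. MLN values were 4.59, 3.21 and 5.83 CPM in MLN cDC1s, 2.19 and 2.76 in T-bet- cDC2s, and 0.866 and 1.47 among T-bet+ cDC2s. They were below spleen in cDC1s (-2.56 ± 0.49, adjusted p = 0.00634) and T-bet+ cDC2s (-2.17 ± 0.57, adjusted p = 0.045). Ldha (chr7:46841475-46855627), the form that favours lactate, was at 1625, 1285 and 1394 CPM in spleen cDC1s, 857, 932 and 663 in T-bet- cDC2s, and 971, 911 and 745 among T-bet+ cDC2s, lower in T-bet+ (-0.71 ± 0.19, adjusted p = 0.0275) and T-bet- cDC2s (-0.81 ± 0.19, adjusted p = 0.017) than in cDC1s. In MLN Ldha was at 1094, 438 and 536 CPM in MLN cDC1s, 441 and 359.9 in T-bet- cDC2s, and 687 and 351 among T-bet+ cDC2s, and MLN cDC1s had less than spleen cDC1s (-1.06 ± 0.32, adjusted p = 0.0487), with the highest value in replicate 1. Ldhb (chr6:142490249-142507957), the heart form, was at 0.972, 0.329 and 0.774 CPM in spleen cDC1s, 7.996, 5.35 and 3.70 in T-bet- cDC2s, and 5.82, 9.90 and 12.001 among T-bet+ cDC2s (24, 8 and 16 reads in the cDC1 libraries). Both cDC2 subsets were above cDC1s, by 3.73 ± 0.52 (adjusted p = 0.00101) and 3.03 ± 0.51 (adjusted p = 0.00326) for T-bet+ and T-bet-. In MLN Ldhb was at 0.73, 1.56 and 0.838 CPM in MLN cDC1s, 8.75 and 7.003 in T-bet- cDC2s, and 6.96 and 3.28 among T-bet+ cDC2s, with differences of 2.33 ± 0.49 (adjusted p = 0.0323) and 2.99 ± 0.50 (adjusted p = 0.0135).

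Slc16a3 no longer passed for T-bet- over cDC1 in MLN without cDC1 replicate 2 or 3, any T-bet+ library or any T-bet- library (1.38 to 1.60). Slc16a3 fell short for MLN over spleen T-bet- cDC2s without spleen T-bet- replicate 1 or 2 or any MLN T-bet- library (-1.68 to -1.38). Slc16a1 missed the threshold for T-bet+ over cDC1 in spleen without T-bet+ replicate 3 (-2.21). Slc16a1 no longer passed for MLN over spleen T-bet+ cDC2s without any spleen T-bet+ library, MLN cDC1 replicate 2 or 3, any MLN T-bet+ library or any MLN T-bet- library (-2.61 to -1.80). Ldha fell short for T-bet+ over cDC1 in spleen without cDC1 replicate 1 or 3 or any T-bet+ library (-0.79 to -0.61). Ldha missed the threshold for T-bet- over cDC1 in spleen without cDC1 replicate 1 (-0.76). Ldha no longer passed for MLN over spleen cDC1s without any spleen cDC1 library, any spleen T-bet+ library, spleen T-bet- replicate 1 or 2, MLN cDC1 replicate 2 or 3 or any MLN T-bet- library (-1.18 to -0.82). Ldhb fell short for T-bet+ over cDC1 in MLN without cDC1 replicate 1 or 3, T-bet+ replicate 1 or any T-bet- library (1.71 to 2.33). Ldhb missed the threshold for T-bet- over cDC1 in MLN without cDC1 replicate 3 or any T-bet- library (2.78 to 3.14). Chromatin at the start of Slc16a3 was more open in cDC2s: the window at -14 bases from the start held 2.97 and 3.92 CPM in cDC1s, 10.2 and 8.20 in T-bet- cDC2s, and 10.6 and 9.72 among T-bet+ cDC2s, or 1.56 ± 0.30 (adjusted p = 1.67e-05) for T-bet+ and 1.42 ± 0.30 (adjusted p = 0.000141) for T-bet- cDC2s over cDC1s. The latter missed the threshold without cDC1 replicate 1 (1.23). At Slc16a1 the direction was opposite. The window at -61 bases from the start held 37.8 and 30.7 CPM in cDC1s, 37.6 and 34.6 in T-bet- cDC2s, and 14 and 15.5 among T-bet+ cDC2s and was less open in T-bet+ cDC2s than in T-bet- cDC2s (-1.29 ± 0.18, adjusted p = 2.78e-07) and cDC1s (-1.21 ± 0.19, adjusted p = 1.73e-07), in each alternative, and the window at -459 bases from the start (chr3:104638135-104638284) held 8.91 and 6.14 CPM in cDC1s, 11.7 and 9.11 in T-bet- cDC2s, and 3.15 and 4.81 among T-bet+ cDC2s and differed with a log2 fold change of -1.37 ± 0.29 (adjusted p = 0.000461) between the cDC2 subsets, though not without T-bet+ replicate 1 or T-bet- replicate 1 (-1.18 to -1.10). Slc16a1 RNA did not pass between the cDC2 subsets (-0.79 ± 0.50, adjusted p = 0.455). The Slc16a1 sequences are shown because its start held 3 of the 8 windows that passed between the cDC2 subsets. The first is the upstream window, with the ETS core in capitals, and the second the 250 bases before the RefSeq start (chr3:104638414-104638663, GRCm38.p6, + strand), with capitals for ACGTG or GCGTG, the core of the hypoxia response element, on either strand.
Slc16a1 upstream window, chr3:104638135-104638284, + strand: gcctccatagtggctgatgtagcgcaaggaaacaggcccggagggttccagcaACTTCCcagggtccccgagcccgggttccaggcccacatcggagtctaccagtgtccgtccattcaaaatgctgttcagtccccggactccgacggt
Slc16a1 before the start, chr3:104638414-104638663, + strand: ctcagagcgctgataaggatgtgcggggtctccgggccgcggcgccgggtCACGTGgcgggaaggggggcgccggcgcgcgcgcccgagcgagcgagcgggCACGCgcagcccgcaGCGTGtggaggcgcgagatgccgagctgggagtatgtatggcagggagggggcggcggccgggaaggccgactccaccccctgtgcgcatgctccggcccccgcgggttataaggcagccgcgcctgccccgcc
The second sequence has 4 matches, of which a pair overlap in CACGTG, the E-box, since it reads the same on both strands.

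Pyruvate dehydrogenase genes and Hif1a passed in no subset comparison. Pdk1 and Pdk3, kinases that inhibit the complex, and Pdha1, its catalytic subunit gene, passed in no subset comparison of either tissue. Pdk1 was at 40.7, 48.6 and 10.4 CPM in spleen cDC1s, 3.61, 5.65 and 32.6 in T-bet- cDC2s, and 20.2, 19.99 and 15.99 among T-bet+ cDC2s, and Pdk3 at 67.8, 74.0 and 26.1 CPM in spleen cDC1s, 30.8, 47.7 and 121 in T-bet- cDC2s, and 123, 140.4 and 123 among T-bet+ cDC2s. Hif1a was at 98.3, 195 and 41.5 CPM in spleen cDC1s, 33.5, 41.3 and 151 in T-bet- cDC2s, and 107, 131 and 108 among T-bet+ cDC2s. For all 3 genes the lowest spleen cDC1 library (replicate 3) and the 2 lowest T-bet- libraries (replicates 1 and 2) were the libraries in the lower GC class. In MLN Hif1a was at 39.5, 62.3 and 82.3 CPM in MLN cDC1s, 33.9 and 60.7 in T-bet- cDC2s, and 51.9 and 48.3 among T-bet+ cDC2s and Pdk3 at 28.0 to 57.4. Pdk1 was lower in MLN than in spleen cDC1s, 4.14, 5.03 and 4.26 against 40.7, 48.6 and 10.4 CPM (-2.89 ± 0.73, adjusted p = 0.0224), and the difference did not pass with GC class as a term. Pdha1 was at 36.5 to 86.8 CPM. Pdk1 no longer passed for MLN over spleen cDC1s without spleen cDC1 replicate 1 or 2 or MLN cDC1 replicate 2 or 3 (-2.98 to -2.57). A window each at Hif1a and Pdk1 was more open in cDC2s. The Hif1a intron window 6.43 kb after the start held 53.3 and 46.8 CPM in cDC1s, 83.0 and 70.1 in T-bet- cDC2s, and 89.4 and 82.5 among T-bet+ cDC2s, or 0.78 ± 0.15 (adjusted p = 1.75e-05) and 0.61 ± 0.15 (adjusted p = 0.000967) for T-bet+ and T-bet- cDC2s over cDC1s, and the window at the Pdk1 start differed by 0.58 ± 0.15 (adjusted p = 0.00129) and 0.61 ± 0.15 (adjusted p = 0.000996). The T-bet- value for Hif1a missed the threshold without cDC1 replicate 2 or T-bet- replicate 1 (0.49 to 0.52); the Pdk1 values did so without cDC1 replicate 2 or T-bet+ replicate 1 (0.48 to 0.52) for T-bet+ and without cDC1 replicate 2 or T-bet- replicate 1 (0.50 to 0.55) for T-bet- cDC2s.

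Isoform use is given as shares of each family's summed level per kilobase of exon, as mean ± SD over libraries. Hk3 made up 87.3% ± 2.86 of hexokinase RNA in spleen cDC1s, 30.4% ± 4.88 for T-bet- and 5.64% ± 1.6 for T-bet+ cDC2s, where Hk1 was the main form at 63.9% ± 0.517. In MLN cDC1s the Hk3 share was 66.7% ± 8.11. Pfkp was 55.7% ± 2.75 of phosphofructokinase RNA in spleen cDC1s, and Pfkl 67.8% ± 5.15 for T-bet- and 74.2% ± 1.46 for T-bet+ cDC2s. Among transporters Slc2a3 went from 7.38% ± 2.36 in spleen cDC1s to 43.1% ± 5.58 in T-bet+ cDC2s, and Slc2a6 was 89.1% ± 9.48 in MLN cDC1s against 40.9% ± 10.6 in spleen cDC1s. Eno3 was 66.6% ± 3.67 of enolase RNA in spleen T-bet+ cDC2s against 38.8% ± 4.12 for the T-bet- subset, and 75.3% to 81.1% in the 3 MLN groups on average. Pfkfb3 was the main PFKFB form in each group, with Pfkfb4 at 34.3% ± 0.526 in spleen T-bet- cDC2s. Slc16a1 was 79.4% ± 9.64 of the lactate transporter pair in spleen cDC1s and 11% ± 1.51 in T-bet+ cDC2s. Ldha was at least 96.0% of the lactate dehydrogenase pair on average in each group. With the length of the longest coding transcript in place of the union of exons, a choice added after seeing the data, Eno3 was 45.9% ± 4.11 of enolase RNA in spleen T-bet+ cDC2s and Eno1, at 53% ± 4.26, was the larger share; Eno3 was 21.2% ± 2.99 for the T-bet- subset and 61.3% to 66.6% on average in the 3 MLN groups. The largest form changed in 3 of 54 combinations of family and group, and Slc2a6 then exceeded Slc2a1 in spleen cDC1s (46.8% ± 10.9 against 42.8% ± 8.86) and spleen T-bet- cDC2s. Of 144 shares, 30 moved by over 1.5 times. Shares were not tested, and those of enolases and lactate dehydrogenases rest on genes with copies elsewhere. Summed over the 33 members, RNA was 5340.0 to 6049 CPM in spleen cDC1s, 5079 to 6036 for T-bet- and 4653 to 4866 for T-bet+ cDC2s. In MLN the sums spread more widely, at 5547 to 7821 CPM in cDC1s, 5359 and 6162 for T-bet- and 4028 and 5243 for T-bet+ cDC2s.

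**Figure D3:**
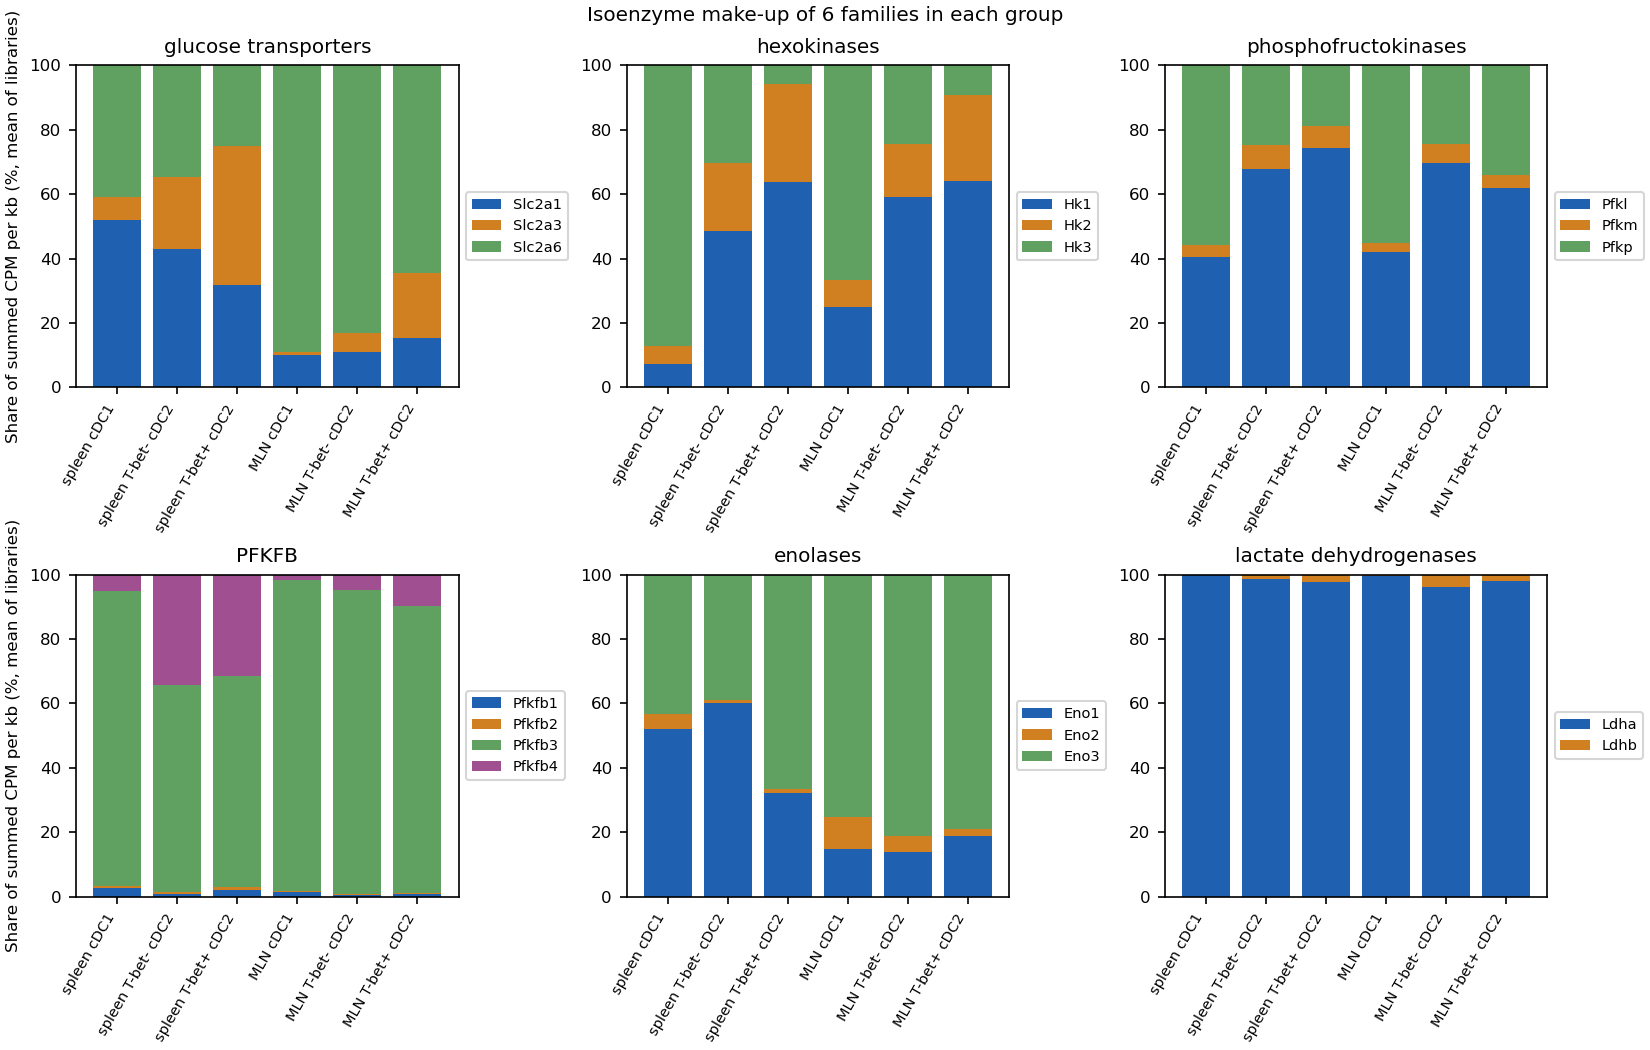
Stacked bars give the mean share (percent) of each isoform in its family's summed CPM per kilobase, for the 6 groups. Hk3 fills most of the hexokinase bar in cDC1s (87.3% in spleen) and Slc2a6 most of the transporter bar in MLN cDC1s (89.1%). Lengths are those of the union of exons; with transcript lengths the larger enolase in spleen T-bet+ cDC2s is Eno1 (53%).

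Slc2a6, Pfkfb3, Eno2 and Eno3 were higher, and Ldha lower, in MLN libraries with high mature migratory markers. Among MLN cDC1s, replicate 1 (markers 4150.0 CPM summed) had 131 CPM of Slc2a6 and 57.6 of Eno2, while replicates 2 and 3 had 448 and 439 of Slc2a6 and 249.6 and 264 of Eno2. Ldha was 1094 CPM in replicate 1 and 438 and 536 in the others. The 2 T-bet+ libraries differed the same way for Slc2a6 (109 and 248.9 CPM in replicates 1 and 2) and Eno2 (18.6 and 103). Spleen libraries had marker sums of 1533 to 5016 CPM. The 2 MLN T-bet+ libraries also differed in cDC1 markers, as given above. The part of either set of markers in the tissue differences was not tested. With both of the MLN libraries that stood apart left out, the counts of members called moved for T-bet- cDC2s against cDC1s in MLN and for T-bet+ cDC2s between tissues. Calls over all genes rose in both comparisons, in a fit that held a lone MLN T-bet+ library.

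**Figure D4:**
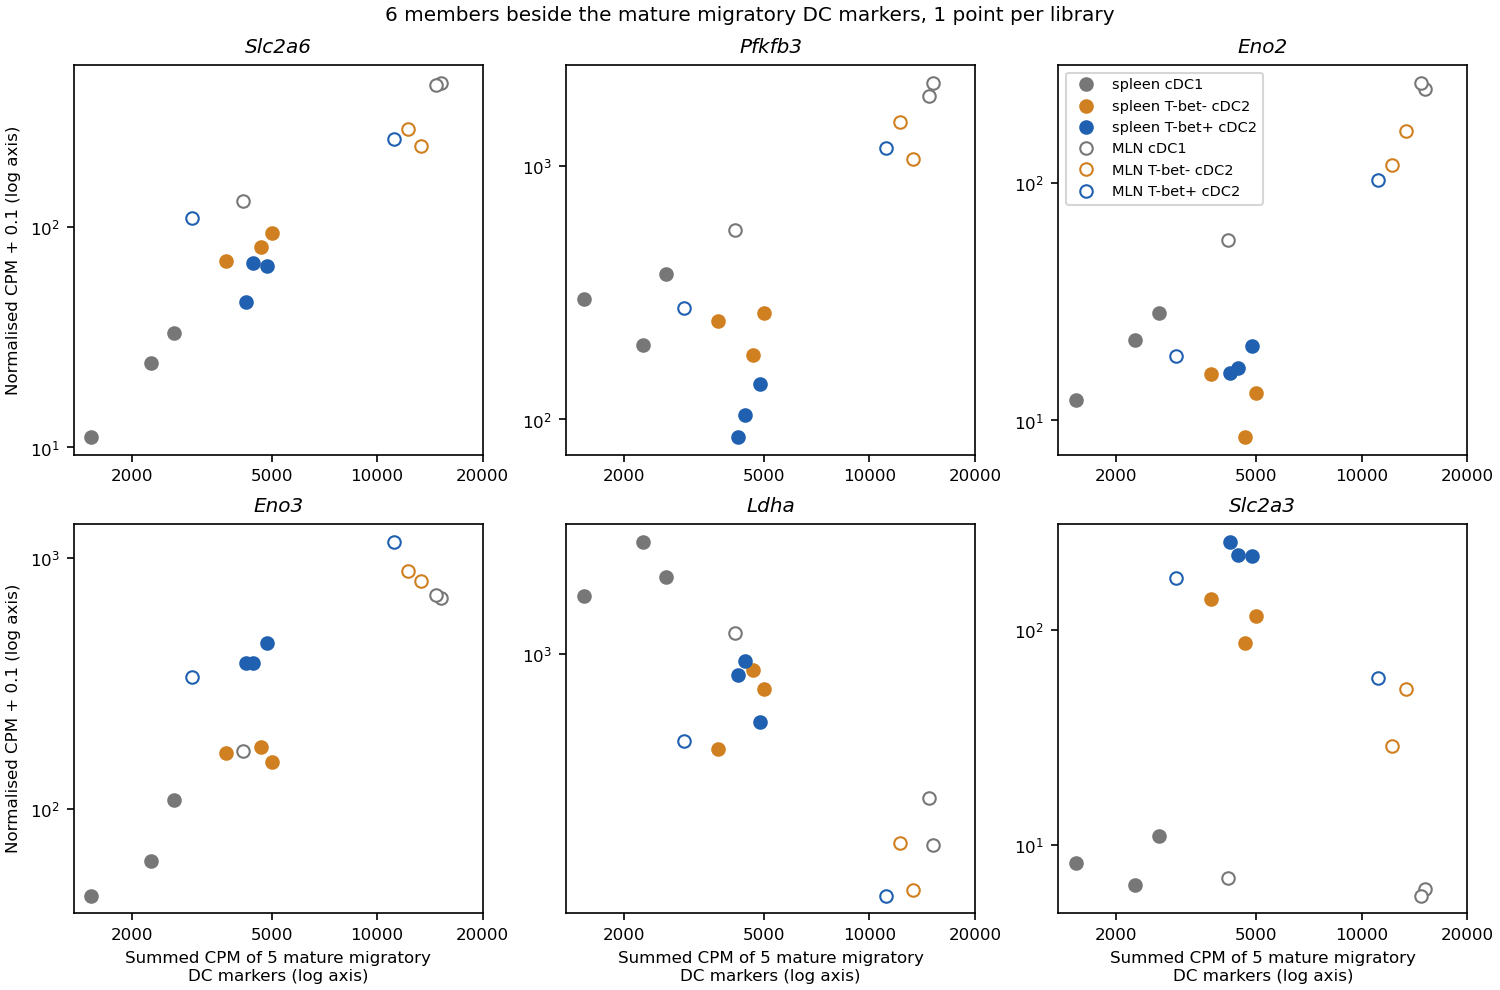
Each point is an RNA library; the horizontal axis is the summed CPM of 5 mature migratory DC markers and the vertical axis the CPM of a member plus 0.1, both on log axes. The open points at low marker sums, near 2967 and 4150 CPM, are MLN T-bet+ and MLN cDC1 replicate 1; the other MLN libraries have marker sums of 11131 to 15184 and higher Slc2a6, Pfkfb3, Eno2 and Eno3.

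Neighbouring pathways were read from 7 lists. Of 37 other glycolysis and pyruvate genes, 5 of 25 tested (4 higher, 1 lower) passed between T-bet+ cDC2s and cDC1s of spleen, where 18.2% of all genes did. Between T-bet- cDC2s and cDC1s 3 of 25 tested (3 higher, 0 lower) passed, where 15.9% of all genes did, so this list stood near the share of all genes. Slc16a7, another monocarboxylate transporter gene, was higher by 4.09 ± 0.50 (adjusted p = 0.000457) and 4.77 ± 0.51 (adjusted p = 0.000218), and Mdh2, mitochondrial malate dehydrogenase, by 2.52 ± 0.30 (adjusted p = 0.000352) in T-bet+ cDC2s over cDC1s and 1.63 ± 0.29 (adjusted p = 0.0118) over T-bet- cDC2s. In the pentose phosphate list, which branches from glucose phosphate, G6pdx (the first and committed enzyme) was higher in T-bet- cDC2s than in cDC1s by 2.02 ± 0.20 (adjusted p = 0.000149) and lower in T-bet+ cDC2s when set against T-bet- cDC2s with a log2 fold change of -1.52 ± 0.20 (adjusted p = 0.00271), with Pgd at -1.05 ± 0.23 (adjusted p = 0.0306); 2 of 8 tested (0 higher, 2 lower) passed there. In the glycogen list, Pygl, glycogen phosphorylase, was higher by 3.003 ± 0.37 (adjusted p = 0.000464) in T-bet+ and 3.002 ± 0.37 (adjusted p = 0.000508) in T-bet- cDC2s than in cDC1s. Of the hypoxia-induced genes outside glycolysis, 6 of 14 tested (4 higher, 2 lower) and 4 of 14 tested (4 higher, 0 lower) passed for T-bet+ and T-bet- cDC2s over cDC1s in spleen. Vegfa, a vascular growth factor, differed by 4.54 ± 0.68 (adjusted p = 0.00151) and 5.43 ± 0.71 (adjusted p = 0.000738), and Adm, adrenomedullin, by 5.51 ± 0.42 (adjusted p = 2.34e-05) and 5.12 ± 0.41 (adjusted p = 3.66e-05). In MLN 3 of 15 tested (2 higher, 1 lower) and 3 of 15 tested (3 higher, 0 lower) passed, Vegfa among them at 4.06 ± 0.75 (adjusted p = 0.0211) and 5.39 ± 0.78 (adjusted p = 0.00818). Of the HIF pathway list 1 of 6 tested (0 higher, 1 lower) passed for T-bet+ cDC2s over cDC1s and 0 of 6 tested (0 higher, 0 lower) for T-bet- cDC2s. Of the regulators of glycolysis, 3 of 9 tested (2 higher, 1 lower) and 2 of 9 tested (1 higher, 1 lower) passed, with Myc higher by 0.99 ± 0.24 (adjusted p = 0.0168) and 1.24 ± 0.24 (adjusted p = 0.00622) and Mtor at -1.10 ± 0.27 (adjusted p = 0.0205) and -1.20 ± 0.27 (adjusted p = 0.0156). Gluconeogenesis genes gave 0 of 4 tested (0 higher, 0 lower) and 0 of 4 tested (0 higher, 0 lower). The shares of all genes are those given above for each comparison.

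RNA and windows can be set side by side in spleen. Of the 8 members higher in T-bet+ cDC2s than in cDC1s, 4 (Slc2a3, Slc2a6, Pfkfb4 and Slc16a3) had windows that were only more open, Slc2a1 had both kinds and 3 (Eno1, Eno3 and Ldhb) had none that passed. Of the 9 lower members, Slc16a1 had only less open windows, Pfkp and Pfkfb3 had both kinds and 6 had none that passed. For T-bet- cDC2s over cDC1s, 7 of 9 higher members had only more open windows, and of the 6 lower members only Pfkfb1 had a less open window and 5 had none that passed. Aldoa, Ldha, Ldhb and Pgk1, counted here among members with none, had no window assigned, so none could pass. No share over all genes is given for these counts, so they are not shown to be particular to the members. Of all windows, 23.0% passed between T-bet+ cDC2s and cDC1s and 17.9% between T-bet- cDC2s and cDC1s, and a member had up to 24 windows. Between the cDC2 subsets, Pfkp was the one member lower in RNA with a less open window, and 4 members with less open windows (Hk1, Pfkfb3, Gapdh and Slc16a1) did not pass in RNA. Sequence motifs were counted on either strand. The hypoxia core, ACGTG or GCGTG, was found in 34.9% of the 218 member windows and 19.6% of all 177956 windows, and in 76.0% of 50 RefSeq promoters of 32 members (300 bases, from 250 before to 50 after the start) against 43.8% of all 32851; Slc2a3 has no promoter entry. The E-box CACGTG, which contains ACGTG, was found in 6.88% of member windows against 2.88%. The ETS core GGAAGT was in 18.3% of member windows against 22.2%, and GGTGTGA, a T-box site, in 0.459% against 2.4%. Member promoters had a median GC content of 59.7% and 18.5 CpG dinucleotides, against 52.7% and 7 for all promoters, and the part of GC content in these shares was not tested. A match is a description of letters and says nothing of binding.

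**Figure D5:**
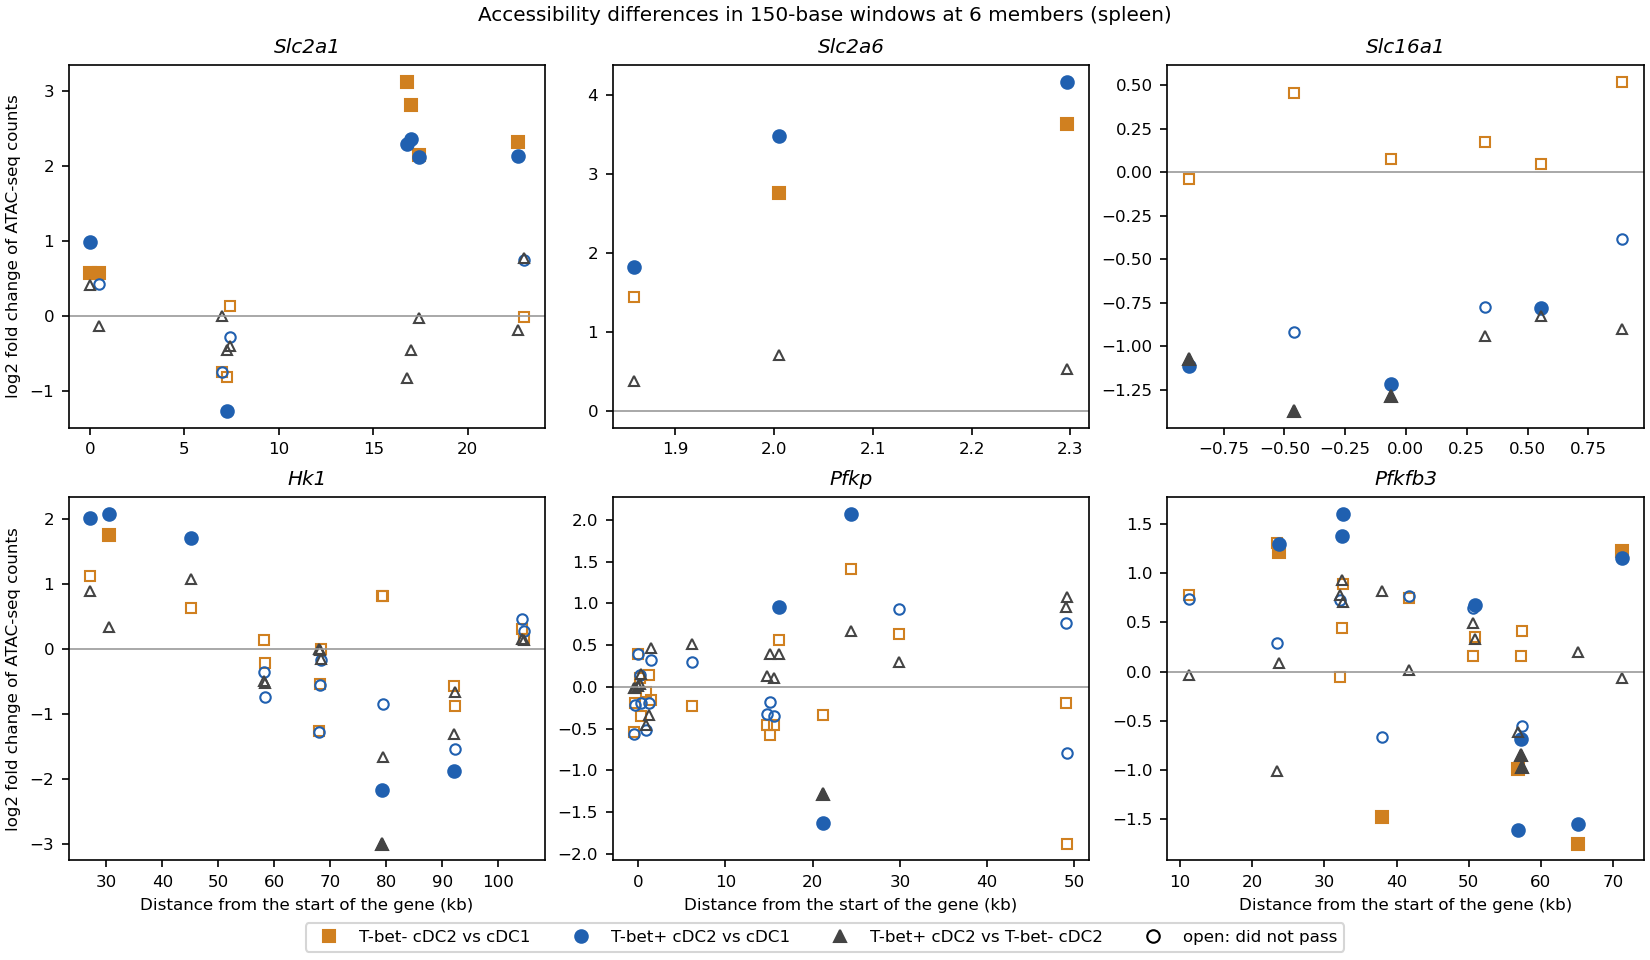
Log2 fold change of ATAC-seq counts against distance from the gene start (kilobases) for windows at 6 members; filled symbols passed, open symbols did not, and colours give the comparison. Filled symbols lie above 2 on the log2 scale at Slc2a1 between 16.8 and 22.6 kb for both cDC2 subsets over cDC1s, and below 0 just before the start of Slc16a1 for T-bet+ cDC2s.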

How the data were processed

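RNA-seq was performed on 16 libraries of sorted mouse DCs and ATAC-seq on 6. Per the methods, the authors amplified cDNA by SMART-Seq, aligned RNA reads with HISAT2 2.1.0, counted uniquely aligned reads per gene with Rsubread, aligned ATAC-seq reads with Bowtie2 2.2.5, called peaks on all replicates together with MACS2 2.1.1.20160309 and counted reads in 150-base windows at summits. The deposited values are raw counts per gene and per window. From these counts, edgeR 4.0.16 quasi-likelihood tests (R 4.3.3) were run with TMM scaling and a filter on low counts, with all subsets of a tissue in a fit, and all 16 libraries in a fit for tissue differences and interactions. Benjamini-Hochberg adjustment was over all genes or windows. Printed CPM values use TMM factors of the 16 libraries, or of the 6 for windows. Scripts were tested on simulated data.

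Groups followed the sample labels. The 33 members, the pathway and marker lists and the alternatives were chosen with earlier results of these data known. Every member is accounted for, and values in every library are given for those that passed a test between subsets. Gene positions are from GENCODE mouse release 21 and sequences from RefSeq GRCm38.p6, both of the mm10 assembly. Replicate numbers were read from the labels. Correlations of same-numbered libraries ran from -0.629 to 0.288 in spleen, -0.122 to 0.561 in MLN and -0.0493 to 0.0266 in ATAC-seq, so the numbers were not treated as pairs. By the numbers in the MLN library names, which differ from the labels for the T-bet- libraries, 5 pairs ran from 0.0155 to 0.561 with 4 over 0.1, and were not treated as pairs either, since pairing required every correlation to be over 0.1. Alternatives were DESeq2 1.42.0, no filter, a replicate block, in MLN a block by library name, only the compared groups, and leaving out each library. Added after seeing the data were a GC class of libraries, a crossed block, leaving out both MLN libraries that stood apart and, for isoform shares, transcript lengths.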

Additional observations from a re-analysis of the deposited data

How the results depend on the processing

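No direction was reversed for a called member or window: of 1202 values of called members under alternatives 935 passed again and 267 did not, and of 835 values of called windows 697 passed and 138 did not. The number of members called moved by over 1.5 times as follows. Between T-bet+ and T-bet- cDC2s of spleen (7) it was 2 with a replicate block and 4 with GC class as a term, where 356 and 671 of all genes passed against 774 in the main fit. Between those of MLN (0) it was 2 under DESeq2 and 2 without the filter, where 341 and 554 of all genes passed against 0. Between T-bet+ cDC2s and cDC1s of MLN (6) it was 11 under DESeq2, 11 without the filter, 3 with the replicate block, 17 with a block by library name, 3 with crossed numbers and 2 with only the compared groups. In that order 2039, 2257, 539, 2440, 573 and 586 of all genes passed, against 952 in the main fit. Between T-bet- cDC2s and cDC1s of MLN (6) it was 10 without the filter, 2 with the replicate block, 12 with a block by library name and 2 with crossed numbers. In that order 2012, 515, 2477 and 601 of all genes passed, against 885 in the main fit. The number of members there also moved by over 1.5 times without both MLN libraries that stood apart, where calls over all genes rose. Between tissues it was 5 with GC class for cDC1s (9) and 13 under DESeq2 for the T-bet- subset (7), where 774 and 2243 of all genes passed against 1961 and 1000. For T-bet+ cells (3) it was 8 under DESeq2, 7 without the filter, 1 with the replicate block, 0 with GC class and 8 with only the compared groups. In that order 2801, 2875, 627, 63 and 2937 of all genes passed, against 855 in the main fit. The number of members there also moved by over 1.5 times without both MLN libraries, where calls over all genes rose too.

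Interactions called 1 member under DESeq2 and 3 without the filter for T-bet+ cDC2s against cDC1s (0), and 1 and 2 for T-bet- cDC2s against cDC1s (0). In that order 239 and 475 of all genes passed for T-bet+ cDC2s, against 15 in the main fit. For T-bet- cDC2s 121 and 261 passed, against 6. Both counts of members also differed without both MLN libraries that stood apart, a fit with a lone MLN T-bet+ library. Windows called between the cDC2 subsets (8) were 4 under DESeq2, where 4844 of all windows passed against 10460 in the main fit, and 4 within 2000 bases of a start. Near starts they were 11 for T-bet+ cDC2s (42) and 7 for T-bet- cDC2s (26) against cDC1s. The cause of these changes was not tested, except that fewer windows were counted near starts.

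On leaving out 1 library, the count ran from 1 to 11 between the cDC2 subsets of spleen, 13 to 19 and 10 to 16 for T-bet+ and T-bet- cDC2s against cDC1s, 0 to 0, 2 to 5 and 0 to 7 for the same comparisons in MLN, and 4 to 12 between tissues in cDC1s, 1 to 8 in T-bet- and 0 to 6 for T-bet+ cDC2s, with 0 to 1 for each interaction with cDC1s. Windows ran from 5 to 8, 27 to 42 and 14 to 30. Over all genes, the 3 spleen comparisons in the same order ran from 307 to 1257, 1749 to 3074 and 1464 to 3077 calls on leaving out 1 library. In MLN against cDC1s and between tissues, calls over all genes also moved both up and down. The ranges given there are thus not particular to members, and some of those fits left a lone library in a group. The crossed pairing in MLN, added after seeing the data, called 4, 573 and 601 genes in all and 0, 3 and 2 members. GC class could not be fitted within MLN. The lone library left in some fits was assumed to vary like the others, and counts such as the 8 to 24 reads of Ldhb in spleen cDC1s limit precision.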
